A study of Mus musculus with 12 samples.

Results

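The goblet cell secretory genes are 10 mouse genes that mark goblet cells or their secreted product: Muc2, Fcgbp, Clca1, Zg16, Tff3, Spink4, Reg4, Agr2, Spdef and Foxa3. They were chosen by name, by matching the Ensembl identifiers of the expression table to GENCODE vM21 symbols, and all 10 were found among its 48795 genes. All 10 were also among the 14856 genes that were tested, which had at least 10 normalised counts in at least 3 of the 12 libraries. For 4 of them (Spdef, Zg16, Spink4 and Reg4) the filter was passed only with the help of the differentiated libraries, whereas the other 6 passed on the stem cell libraries alone.

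Goblet cells are the mucus-secreting cells of the intestinal lining and arise from crypt stem cells through a secretory progenitor in which Notch signalling is low and Atoh1 is active. Their granules hold the gel-forming mucin Muc2 and smaller proteins that enter the mucus layer, and the secretory load is folded by a large endoplasmic reticulum with enzymes such as Agr2. Spdef and Foxa3 are transcription factors that drive the later steps of goblet cell maturation. In the colon the resulting mucus keeps bacteria away from the epithelium.

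Colonic crypts of C57BL/6 mice that were either wild type (WT) or AhR deficient (AhR-/-) were grown in matrigel as organoids, which are self-organising clusters of epithelial cells. AhR is the aryl hydrocarbon receptor, a ligand-activated transcription factor. The stem cell condition was WENR medium, with Wnt-3A, Noggin, Rspondin-1 and EGF, and the differentiated condition was ENR medium, free of Wnt-3A, for 3 days. Each of the 4 groups (WT stem, AhR-/- stem, WT differentiated and AhR-/- differentiated) had 3 total RNA libraries. The labels give neither the allele behind the AhR deficiency, nor whether it was restricted to the epithelium, nor the age of the mice. Whether the 3 libraries of a group stem from different mice, different cultures or a single one is not stated, so p-values refer to the spread among libraries, which may be technical only. All groups were organoids, so the blood supply and the bacteria of the living colon were not part of the model.

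The regulatory sequences of the genes whose levels moved together on differentiation, and of Foxa3, which moved the other way, are shown here. RefSeq (GRCm38.p6) held a promoter entry for 6 of the 10 genes. The 250 bases before the transcription start are printed 5′ to 3′ on the strand of the gene for 5 of them, with capitals marking every match, on either strand, to GCGTG (core of the AhR binding site), TGTTTAC (FOXA), AGGAT (SPDEF), CAGCTG (an E-box of the ATOH1 kind), GGGTG (KLF4) and TTTAT (CDX).
Muc2: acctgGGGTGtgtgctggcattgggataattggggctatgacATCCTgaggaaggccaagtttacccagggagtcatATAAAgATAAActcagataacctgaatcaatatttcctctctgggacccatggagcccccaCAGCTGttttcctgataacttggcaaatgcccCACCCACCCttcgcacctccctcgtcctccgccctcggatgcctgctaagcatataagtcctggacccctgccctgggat
Fcgbp: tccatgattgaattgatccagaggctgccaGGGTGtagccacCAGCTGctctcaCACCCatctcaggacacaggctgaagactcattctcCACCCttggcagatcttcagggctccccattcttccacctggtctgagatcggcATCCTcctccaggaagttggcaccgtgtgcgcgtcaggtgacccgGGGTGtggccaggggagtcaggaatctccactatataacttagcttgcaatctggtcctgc
Agr2: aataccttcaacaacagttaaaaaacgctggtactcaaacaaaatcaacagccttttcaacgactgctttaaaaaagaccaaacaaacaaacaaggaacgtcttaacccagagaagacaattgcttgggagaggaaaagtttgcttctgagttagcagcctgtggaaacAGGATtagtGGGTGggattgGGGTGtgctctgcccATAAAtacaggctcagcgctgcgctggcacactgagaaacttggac
Spdef: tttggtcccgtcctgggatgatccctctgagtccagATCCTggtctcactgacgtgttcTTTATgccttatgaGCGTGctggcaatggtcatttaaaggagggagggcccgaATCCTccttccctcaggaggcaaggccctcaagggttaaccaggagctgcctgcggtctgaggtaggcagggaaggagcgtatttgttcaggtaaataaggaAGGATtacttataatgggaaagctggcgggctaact
Foxa3: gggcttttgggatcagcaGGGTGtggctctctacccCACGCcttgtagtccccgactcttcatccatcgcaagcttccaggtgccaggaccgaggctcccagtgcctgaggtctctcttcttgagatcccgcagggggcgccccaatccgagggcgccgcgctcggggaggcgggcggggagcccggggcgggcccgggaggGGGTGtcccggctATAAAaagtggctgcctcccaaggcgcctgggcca
On GRCm38 the genes themselves span chr7:141690340-141754693 (Muc2), chr17:31125306-31129646 (Tff3), chr17:27714352-27728955 (Spdef), chr7:28071236-28120862 (Fcgbp), chr12:35992907-36004087 (Agr2), chr3:145003817-145032776 (Clca1), chr7:127050156-127087328 (Zg16), chr4:40920052-40931395 (Spink4), chr3:98222156-98236748 (Reg4) and chr7:19013284-19023538 (Foxa3). These windows lie at chr7:141690090-141690339 (plus strand) for Muc2, chr7:28070986-28071235 (plus) for Fcgbp, chr12:35992675-35992924 (plus) for Agr2, chr17:27728952-27729201 (minus) for Spdef and chr7:19023540-19023789 (minus) for Foxa3. The windows are placed by the RefSeq start, and those of Agr2 and Spdef reach into the GENCODE gene spans given here. In Muc2 a pair of GGGTG matches on the minus strand share a base, and no other matches in the printed windows overlap.

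The AGGAT letters were present in 5 of the 6 promoters with an entry, in Muc2, Fcgbp, Agr2, Reg4 and, at 3 places, in Spdef itself, but not in Foxa3. Among all 32851 promoters of the same length, 35.8% held them. GGGTG was in 4 of 6 (52.0% of all), TTTAT in 4 of 6 (37.3%), CAGCTG in 2 of 6 (Muc2 and Fcgbp; 13.0%), GCGTG in 2 of 6 (Spdef and Foxa3; 28.2%) and TGTTTAC in 1 of 6 (Reg4; 3.17%). These matches describe the letters of the windows and are not evidence of binding. The Foxa3 window was the richest in G and C, at 68.8%, and that of Reg4 the poorest, at 37.2%, against a median of 52.4% over all promoters.

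The depth of the libraries was 25057534 to 99023592 recovered reads. Ahr RNA did not check the genotype labels: it was listed at 1746 to 2260 normalised counts in the WT libraries and at 2503 to 3824 in the AhR-/- ones. A gene-level value cannot show a deletion of part of the transcript, and AhR-/- means here the libraries so labelled. Cyp1b1, a gene that AhR switches on, ranged from 7479 to 8502 in WT stem against 269 to 571 in AhR-/- stem libraries, and from 574 to 680 in WT differentiated against 13.0 to 20.6 in AhR-/- differentiated libraries. A pair of libraries stood apart. WT stem library 1 carried fibroblast transcripts, with Vim at 13196 and Col1a1 at 4788, where the other 11 libraries reached at most 356 and 159. AhR-/- differentiated library 1 was the lowest of its group for 9 of the 10 goblet cell genes. Results for the 10 genes between the differentiated groups are therefore given with and without it. Values of single genes of the other lists, and the sums of marker lists, include it.

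Together the 10 genes made up 105 to 112 CPM (their share of all normalised counts) in WT stem, 84.0 to 108 in AhR-/- stem, 285 to 386 in WT differentiated and 174 to 422 in AhR-/- differentiated libraries. The group means were 108 ± 3.63, 94.0 ± 12.3, 351 ± 57.3 and 315 ± 128 CPM (SD, n = 3 each). Fcgbp alone supplied 35.3 to 60.7% of this sum in the stem cell condition and 60.6 to 67.6% after differentiation, whereas the share of Foxa3 went from 23.4 to 33.6% down to 3.33 to 12.2%.

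**Figure D1:**
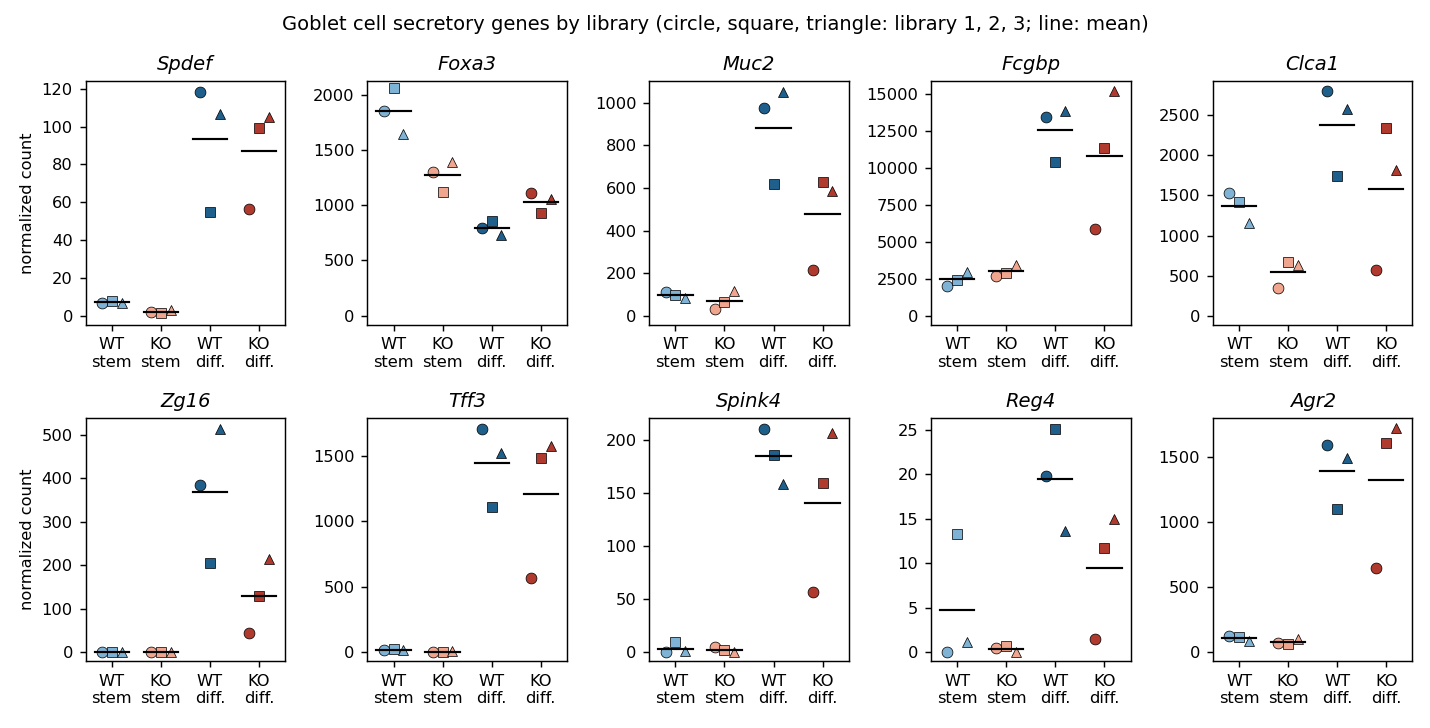
Normalised count of each of the 10 goblet cell secretory genes (y axis, linear, each panel with its own scale) in the 12 libraries, by group (x axis); circles, squares and triangles are libraries 1, 2 and 3 and the line is the group mean. Foxa3 is highest in WT stem (mean 1856) whereas the other 9 genes have their highest group mean in the WT differentiated libraries, and AhR-/- differentiated library 1 (circle) lies below libraries 2 and 3 in 9 panels.

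Since long transcripts collect more reads, levels of different genes were compared as normalised counts per kb of exon. The exon lengths came from GENCODE vM21 (7.127 kb for Muc2). The annotation used in the counting is not given, so the order of the genes is uncertain to that extent. In WT differentiated organoids Tff3, which encodes the trefoil peptide of the mucus, was the most abundant, at 2933 ± 623 per kb (SD, n = 3). Fcgbp, which encodes a large mucus-binding protein, followed at 1195 ± 179 per kb and Agr2 at 1080 ± 201 per kb, and the ranges of these neighbours overlapped. Clca1 (629 ± 149), Foxa3 (389 ± 30.1), Spink4 (388 ± 54.1), Zg16 (293 ± 123), Muc2 (124 ± 32.4), Spdef (40.5 ± 14.6) and Reg4 (19.1 ± 5.62 per kb) came next. Of these, Foxa3 could not be separated from Spink4, Spink4 not from Zg16, and Spdef not from Reg4, since their libraries overlapped.

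The order was another in the stem cell condition. In WT stem organoids Foxa3 led, at 911 ± 102 per kb, followed by Clca1 (362 ± 50.1), Fcgbp (234 ± 47.5), Agr2 (85.5 ± 16.1) and Tff3 (44.9 ± 3.998 per kb), none of which overlapped with its neighbour. Muc2 (13.8 ± 1.90), Spink4, Reg4 and Spdef followed, and Muc2 overlapped with Spink4, Spink4 with Reg4, and Reg4 with Spdef. Zg16 was listed at 0 in all 3 WT stem libraries. In AhR-/- stem organoids Fcgbp (286 ± 35.7 per kb) stood above Clca1 (145 ± 47.5 per kb), the reverse of their order in WT stem. In AhR-/- differentiated organoids the genes from Tff3 (2456 ± 1136) to Spdef (37.7 ± 11.5 per kb) each overlapped with the next, and only Spdef and Reg4 (9.23 ± 6.89 per kb) were apart.

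**Figure D2:**
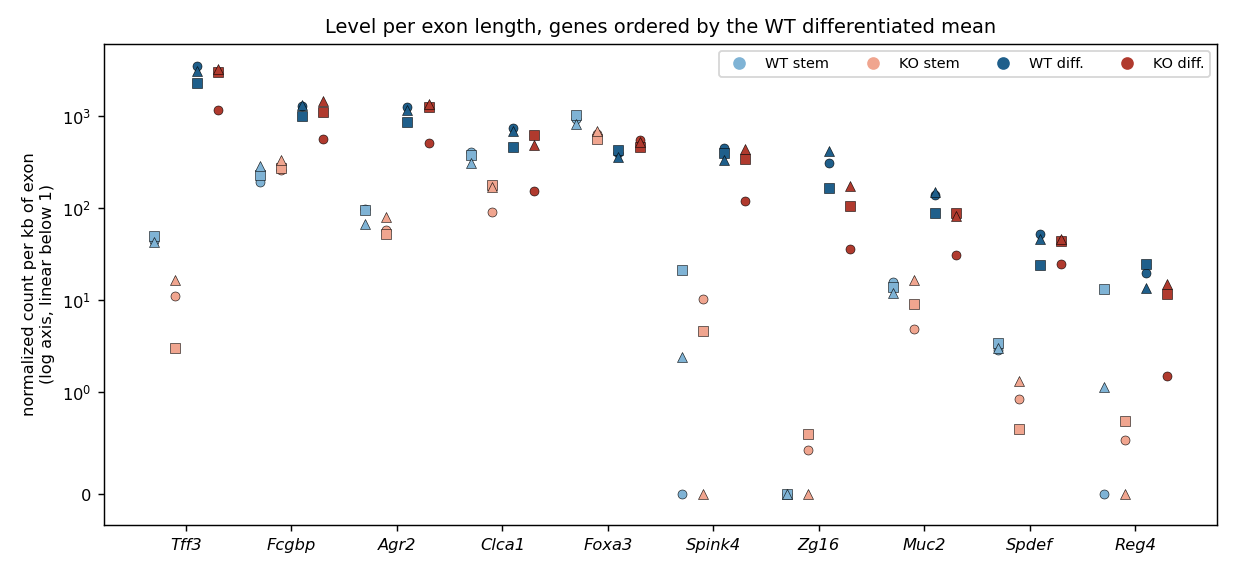
Normalised count per kb of exon (y axis, logarithmic above 1 and linear below) of each gene (x axis, ordered by the WT differentiated mean) in the 12 libraries; colour gives the group and circles, squares and triangles are libraries 1, 2 and 3. Tff3 moves from the fifth place in WT stem (44.9 per kb) to the top in WT differentiated (2933 per kb), and Foxa3 from the top (911 per kb) to the middle (389 per kb).

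After 3 days without Wnt-3A most of the goblet cell genes were higher in both genotypes. In WT organoids 8 of the 10 rose and Foxa3 fell, and in AhR-/- organoids 9 rose and Foxa3 fell. Across all 14856 genes 72.2% passed the same test in WT (36.3% up and 35.9% down) and 67.7% in AhR-/- organoids (34.1% up and 33.6% down). The test was limma on log2(normalised count + 1), with Benjamini-Hochberg adjustment over all genes and a threshold of 0.05, and all adjusted p-values below come from it unless another test is named. The median log2 change of the 10 genes was 3.30 in WT and 3.33 in AhR-/- organoids, against 0.01 over all genes in both. For Spdef, Zg16, Spink4 and Reg4 a rise was built into the filter, so their calls describe these genes and add no support. The medians of the 10 genes include these 4 and are raised by the filter to that extent. The 6 genes that passed on the stem cell libraries alone ranged from -1.22 (Foxa3) to 5.95 (Tff3) in WT. In AhR-/- organoids they ranged from -0.29 (Foxa3) to 7.71 (Tff3). In bulk RNA a larger number of goblet cells and more RNA per cell cannot be told apart.

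Of the transcription factors, Spdef, which drives goblet cell maturation, was at 6.52, 7.76 and 6.92 normalised counts in the 3 WT stem libraries and at 118, 54.9 and 107 in the WT differentiated ones. In AhR-/- organoids it was at 2.15, 1.47 and 3.05 in the stem and at 56.4, 99.4 and 105 in the differentiated libraries. The conditions did not overlap in either genotype, and Spdef rose by 3.48 ± 0.35 in WT (log2 change ± SE, adjusted p = 3.4e-06) and by 4.75 ± 0.35 in AhR-/- organoids (adjusted p = 3.9e-07). The WT stem values rested on 17 reads and the AhR-/- stem values on 9 reads in all.

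Foxa3, a forkhead factor of goblet cells and of the liver and gut endoderm, went the other way. It was at 1860, 2061 and 1647 in WT stem and at 792, 854 and 731 in WT differentiated libraries, with no overlap. In AhR-/- organoids it was at 1301, 1123 and 1390 in the stem and at 1114, 934 and 1057 in the differentiated libraries, all lower than the lowest stem library. Foxa3 fell by 1.22 (SE 0.11, adjusted p = 1.2e-06) in WT and by 0.29 (SE 0.11, adjusted p = 0.032) in AhR-/- organoids on the log2 scale. The latter call was lost without AhR-/- stem library 1 or 3 or AhR-/- differentiated library 2 or 3 (adjusted p 0.054 to 0.13) and after quantile normalisation (0.068).

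Among the mucus proteins, Muc2, the gel-forming mucin of the colon, was at 112, 97.5 and 85.4 in WT stem and at 975, 619 and 1052 in WT differentiated libraries. In the AhR-/- groups it was at 33.9, 64.6 and 116 in the stem condition and at 217, 630 and 586 after differentiation. Every differentiated library was above every stem library of its genotype, with a ratio of means of 8.95 in WT and 6.68 in AhR-/- organoids. The log2 changes were 3.12 ± 0.46 (adjusted p = 7.3e-05) and 2.74 ± 0.46 (adjusted p = 0.00024).

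Fcgbp had the highest counts of the set. It was at 1994, 2382 and 2984 in WT stem and 13441, 10380 and 13812 in WT differentiated libraries, and at 2717, 2868 and 3428 against 5865, 11360 and 15199 in the AhR-/- groups. The groups did not overlap, and the log2 changes were 2.36 ± 0.28 (adjusted p = 1.4e-05) and 1.75 ± 0.28 (adjusted p = 0.00019).

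Clca1, a secreted metalloprotease-like protein of the mucus, was already abundant before differentiation. It was at 1526, 1416 and 1158 in WT stem and at 2803, 1738 and 2583 in WT differentiated libraries, which were all higher, but the log2 change of 0.78 (95% confidence interval -0.20 to 1.75, adjusted p = 0.14) did not pass the test. It passed when AhR-/- differentiated library 1 was left out (adjusted p = 0.020), and when only the WT groups were fitted (0.0092). In AhR-/- organoids Clca1 was at 340, 670 and 628 in the stem and at 572, 2343 and 1814 in the differentiated libraries, so that differentiated library 1 lay within the stem range. The rise of 1.36 ± 0.44 passed (adjusted p = 0.017), but not when AhR-/- stem library 1 or differentiated library 2 or 3 was left out (0.066 to 0.079), nor when only the AhR-/- groups were fitted (0.054).

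Zg16, a lectin-like granule protein that binds bacterial cell walls, was listed at 0 in all 3 WT stem libraries and at 384, 205 and 513 in the WT differentiated ones. With 3 reads per library as the limit that a count of 0 allows, the level was at least 94.5-fold higher after differentiation in WT organoids. In AhR-/- organoids there were 2 reads in the stem libraries against 496 in the differentiated ones, which were at 44.9, 130 and 215 normalised counts. This gave a ratio of 280, with an exact counting interval of 77.2 to 2323 that covers counting error only. Zg16 passed the test in WT (adjusted p = 6.2e-08) and in AhR-/- organoids (adjusted p = 9.6e-07), in both through the filter described above.

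Of the small secreted proteins, Tff3, the trefoil peptide, was at 21.2, 24.4 and 20.8 in WT stem and at 1707, 1107 and 1524 in WT differentiated libraries, a 65.4-fold higher mean. In AhR-/- organoids it was at 5.39, 1.47 and 8.14 in the stem, from 20 reads in all, and at 566, 1486 and 1580 in the differentiated libraries. The log2 changes were 5.95 ± 0.47 (adjusted p = 4.2e-07) and 7.71 ± 0.47 (adjusted p = 8.4e-08).

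Spink4, a Kazal-type protease inhibitor made by goblet cells, was at 0, 9.97 and 1.15 in WT stem and at 211, 186 and 159 in WT differentiated libraries. It was at 4.85, 2.20 and 0 against 57.1, 159 and 207 in the AhR-/- groups. The stem values rested on 10 reads in WT, 9 of them in library 2, and on 12 reads in AhR-/- organoids. Spink4 rose by 6.01 ± 0.85 in WT (adjusted p = 5.4e-05) and by 5.55 ± 0.85 in AhR-/- organoids (adjusted p = 0.00012).

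Reg4, a secreted C-type lectin also made by enteroendocrine cells, was the least abundant of the set, with 103 reads in all 12 libraries. It was at 0, 13.3 and 1.15 in WT stem and at 19.8, 25.1 and 13.6 in WT differentiated libraries, where the lowest differentiated value lay just above WT stem library 2. In AhR-/- organoids there were 2 reads in the stem libraries against 35 in the differentiated ones, at 1.52, 11.8 and 15.0 normalised counts, a ratio of 19.8 with an exact counting interval of 5.09 to 170. Reg4 passed in WT (adjusted p = 0.021) and in AhR-/- organoids (adjusted p = 0.029). The WT call was lost in edgeR (0.076) and DESeq2 (0.11) on the recovered reads and without WT stem library 1 or 3 or WT differentiated library 1 or 2. The AhR-/- call was lost without stem library 1 or 3 or differentiated library 2 or 3.

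Agr2, a disulphide isomerase of the endoplasmic reticulum needed to make Muc2, was at 124, 121 and 86.6 in WT stem and at 1588, 1099 and 1495 in WT differentiated libraries. It was at 73.3, 66.8 and 103 against 644, 1605 and 1718 in the AhR-/- groups. The log2 changes were 3.65 ± 0.33 (adjusted p = 1.4e-06) and 3.91 ± 0.33 (adjusted p = 1.2e-06), with no overlap between the conditions.

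Over the 10 genes the differentiated and stem libraries were apart in all 10 in WT (9 higher and 1 lower) and in 9 in AhR-/- organoids (8 higher and 1 lower), against 75.0% (37.8% higher and 37.3% lower) and 74.3% (37.1% higher and 37.2% lower) of all genes tested. For Spdef, Zg16, Spink4 and Reg4 the higher level was built into the filter, so their part of these counts adds no support. These comparisons each share their stem and differentiated groups with the genotype comparisons below.

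**Figure D3:**
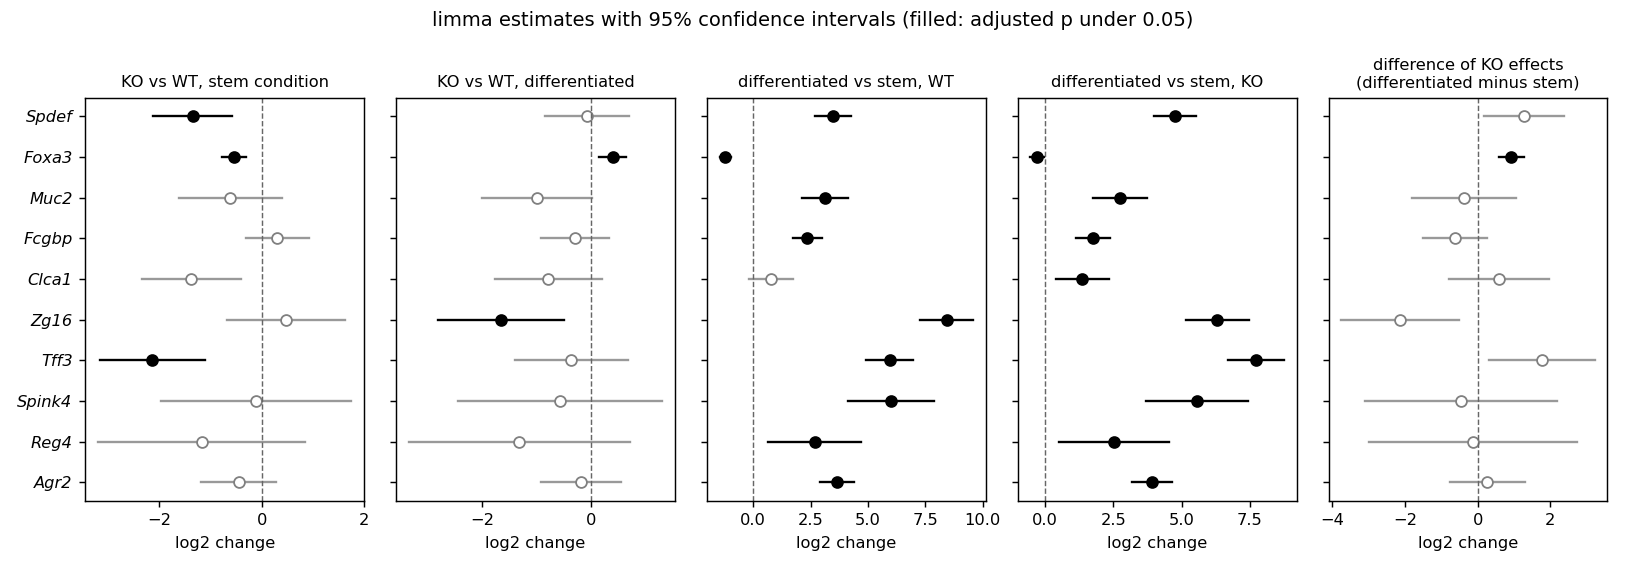
Log2 change of each gene (x axis) with its 95% confidence interval in the 4 pairwise comparisons, and the difference between the AhR-/- effects in the 2 conditions (right); filled points have an adjusted p under 0.05 in limma. Foxa3 is the only gene left of 0 in both differentiation panels (-1.22 and -0.29), and the only filled point in the right panel (0.93).

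In the stem cell condition 3 of the 10 goblet cell genes were lower in AhR-/- than in WT organoids, Tff3, Spdef and Foxa3, and none was higher. Among all genes 6.57% passed this test, 3.48% higher (517) and 3.09% lower (459). That split was 635 to 308 in edgeR with TMM scaling and 840 to 1144 in DESeq2. The median log2 change of the 10 genes was -0.58, against -0.04 over all genes, and 8 of 10 were below 0. The mean levels of Spdef, Zg16, Spink4 and Reg4 in this condition were under 10 normalised counts in both genotypes.

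The fall of Tff3, from 20.8 to 24.4 in WT to 1.47 to 8.14 in AhR-/- stem libraries, was 2.14 on the log2 scale (SE 0.47, adjusted p = 0.022), a 4.42-fold lower mean. It rested on 53 against 20 reads and was lost in edgeR (adjusted p = 0.098), when only the stem groups were fitted (0.097), and without WT stem library 2 (0.069), AhR-/- stem library 1 (0.060) or AhR-/- stem library 2 (0.065). Spdef fell by 1.35 (SE 0.35, adjusted p = 0.044), from 17 to 9 reads, and this call was lost in edgeR (0.099), in DESeq2 (0.081), with a pseudocount of 5 (0.15), with no filter (0.098), when only the stem groups were fitted (0.089) and in 9 of the 12 fits that left out 1 library (up to 0.14). Foxa3 fell by 0.54 (SE 0.11, adjusted p = 0.015) without overlap between the groups, and this call was lost without WT stem library 2 (0.058), AhR-/- stem library 1 (0.0504) or AhR-/- stem library 2 (0.066), and when only the stem groups were fitted (0.080).

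Clca1 was also lower in every AhR-/- stem library than in every WT stem library (340 to 670 against 1158 to 1526), 2.50-fold in the means. Its log2 change of -1.37 (95% confidence interval -2.35 to -0.40) missed the threshold (adjusted p = 0.088). It passed in DESeq2 (0.042) and when AhR-/- differentiated library 1, which is in neither group but enters the shared estimate of the spread, was left out (0.010). Clca1, Tff3, Spdef and Foxa3 were thus the 4 genes without overlap, all of them lower, against 17.9% of all genes that were lower, 11.6% that were higher and 29.5% in either direction. Clca1 has close paralogs between which the counting may have split reads: Clca3b was at 8024 to 11820 in WT stem and at 914 to 1359 in AhR-/- stem libraries, so the Clca1 values are uncertain to that extent.

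The other 6 genes had intervals that included 0 in the stem cell condition. The log2 estimate was -0.62 for Muc2 (95% confidence interval -1.62 to 0.39), -0.45 for Agr2 (-1.18 to 0.28) and 0.30 for Fcgbp (-0.32 to 0.93). The intervals of Spink4 (-1.98 to 1.75) and Reg4 (-3.20 to 0.85) were the widest, and no difference in these genes was detectable at this depth. Without WT stem library 2, which held 12 of the 13 Reg4 reads of WT stem, the estimate for Reg4 was -0.08 in place of -1.18, and that of Spink4 was 0.86 in place of -0.11. Zg16 gave 0 reads in WT and 2 in AhR-/- stem libraries, too few for a fold. Without WT stem library 1, the one with fibroblast transcripts, Tff3 (-2.16, adjusted p = 0.034) and Foxa3 (-0.54, 0.025) still passed and Spdef did not (-1.40, 0.053).

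After differentiation 2 of the 10 genes differed between genotypes, with Zg16 lower and Foxa3 higher in AhR-/- organoids, while 27.6% of all genes passed this test, 13.8% higher and 13.9% lower. The median log2 change was -0.47 against 0.02 over all genes, and 9 of the 10 were below 0. When AhR-/- differentiated library 1 was left out, neither call remained in limma, and 4 of the 9 estimates below 0 changed sign.

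Zg16 was at 384, 205 and 513 in WT and at 44.9, 130 and 215 in AhR-/- differentiated libraries, where the highest AhR-/- library lay just above the lowest WT one. It fell by 1.66 on the log2 scale (SE 0.52, adjusted p = 0.037), a 2.83-fold lower mean. Without AhR-/- differentiated library 1 the estimate was -1.03 (adjusted p = 0.14). The call was also lost without WT differentiated library 1 (0.10), WT library 3 (0.14) or AhR-/- library 2 (0.062), in edgeR (0.058), with a pseudocount of 0.5 (0.052), with no filter (0.071), with a filter on a mean of at least 50 (0.053) and when only the differentiated groups were fitted (0.089).

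Foxa3 was higher in every AhR-/- differentiated library (934 to 1114) than in every WT one (731 to 854), a 1.31-fold higher mean and a log2 change of 0.38 ± 0.11 (adjusted p = 0.025). It was the only one of the 10 genes without overlap, against 26.8% of all genes that were higher, 26.4% that were lower and 53.1% in either direction. The call was lost without WT differentiated library 1 (0.065) or 3 (0.097), or AhR-/- differentiated library 1 (0.093) or 3 (0.061).

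For the other 8 genes the ranges of the genotypes overlapped. The log2 estimate was -0.99 for Muc2 (95% confidence interval -1.997 to 0.011, adjusted p = 0.13), -0.79 for Clca1 (-1.76 to 0.18) and -1.32 for Reg4 (-3.34 to 0.71). Spink4 (-0.57), Tff3 (-0.37), Fcgbp (-0.31), Agr2 (-0.18) and Spdef (-0.08) were nearer to 0, with intervals that reached at most -2.44 and 1.29, those of Spink4. Without AhR-/- differentiated library 1 the estimate for Muc2 was -0.50, that for Clca1 -0.17 and that for Reg4 -0.48, while Tff3 (0.11), Fcgbp (0.08), Agr2 (0.27) and Spdef (0.20) lay above 0.

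That library gave 11.4 to 55.2% of the mean of AhR-/- libraries 2 and 3 in 9 of the 10 genes, with Reg4 the lowest and Spdef the highest, and 112% for Foxa3. Relative to the WT mean, libraries 2 and 3 averaged 1.06 for Tff3, 1.06 for Fcgbp, 1.10 for Spdef, 1.19 for Agr2 and 0.99 for Spink4. They averaged 0.88 for Clca1, 0.69 for Muc2, 0.69 for Reg4 and 0.47 for Zg16. Over all genes tested library 1 was the lowest of the 3 in 39.4% and the highest in 44.3%.

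**Figure D4:**
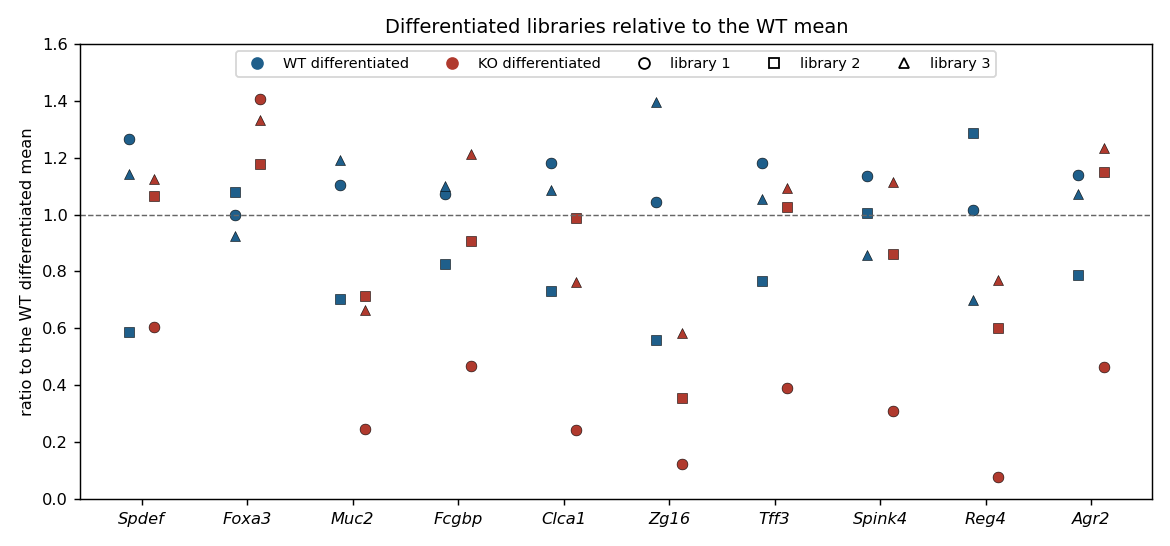
Normalised count of each gene in the 3 WT and 3 AhR-/- differentiated libraries divided by the WT differentiated mean (y axis, linear; the dashed line is 1); circles, squares and triangles are libraries 1, 2 and 3. AhR-/- library 1 (red circle) is the lowest AhR-/- point for every gene but Foxa3, and for Zg16 libraries 2 and 3 average 0.47 of the WT mean.

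The same library was low in some other marker lists and not in others. It was the lowest of its group for 6 of the 6 surface colonocyte genes and 5 of the 5 enteroendocrine genes that averaged at least 10 in libraries 2 and 3, at a median of 36.3% and 37.8% of that mean, next to 36.3% for the goblet cell genes. For the other goblet cell products it was the lowest in 10 of 11 such genes (median 37.8%), with Dmbt1 at 21.5% and Oit1 at 37.8%. It was also the lowest for 4 of 5 proliferation genes (median 68.1%) and 3 of 4 Paneth cell genes (30.2 to 206%). The stem cell list stood at a median of 114%, the tuft cell list at 103%, with library 1 the lowest for 1 of its 4 genes, and the deep crypt secretory cell list at 130%, with library 1 the lowest for none of its 5 genes. The part of these markers in the goblet cell values was not tested.

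Whether the effect of AhR deficiency differed between the conditions was tested as an interaction. Foxa3 alone passed: its change was -0.54 in the stem cell condition and 0.38 after differentiation, a difference of 0.93 ± 0.15 (adjusted p = 0.011), where 8.70% of all genes passed, 5.12% upward and 3.58% downward. It passed in each of the 12 fits that left out 1 library. For Tff3 the difference was 1.77 (95% confidence interval 0.31 to 3.22, adjusted p = 0.11), for Spdef 1.27 (0.18 to 2.36, 0.13) and for Zg16 -2.13 (-3.76 to -0.50, 0.092). The Zg16 value rests on 0 WT and 2 AhR-/- stem reads, too few for a fold. It was -3.83 in edgeR (adjusted p = 0.47) and -2.50 in DESeq2 (adjusted p = 0.33). Tff3 passed in DESeq2 (1.95, adjusted p = 0.016), which called 2 of the 10 genes. For the other 6 genes the intervals included 0, from Fcgbp (-1.49 to 0.26) to Reg4 (-3.00 to 2.72).

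The genes around this set were followed in lists of the goblet cell program. Of 17 other goblet cell products 10 were tested, and 9 of these rose and 1 fell on differentiation in both genotypes. Of those that rose, Klk1 and Tpsg1, at no more than 3.32 in the stem libraries, passed the filter only with the differentiated libraries, so that their direction was fixed by it. Over all genes 72.2% were called in WT and 67.7% in AhR-/- organoids. Dmbt1, a mucin-like binding protein of microbes, rose by 8.86 ± 0.54 in WT (adjusted p = 5.0e-08) and by 8.55 ± 0.54 in AhR-/- organoids (adjusted p = 1.1e-07), and Ang4, an antimicrobial ribonuclease, by 3.27 ± 0.50 and 4.98 ± 0.50. The exception was Retnlb, a resistin-like protein of goblet cells, which changed by -2.09 ± 0.32 in WT and by -2.36 ± 0.32 in AhR-/- organoids. Retnlb was named after its values were seen. Tff1, Muc5ac, Muc5b and Muc6, products of stomach or airway mucus cells, were at 0 to 2.27 normalised counts throughout.

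In the stem cell condition 4 of these 10 were lower in AhR-/- organoids and none was higher, with 2 to 5 called when 1 library was left out. The smaller number came without WT stem library 1 or 2, any of the AhR-/- stem libraries, or WT differentiated library 1 or 3. They included Oit1 (-2.60 ± 0.34, adjusted p = 0.0014), Pla2g10, a secreted phospholipase (-2.49 ± 0.61, adjusted p = 0.035), and Ang4 (-1.97 ± 0.50, adjusted p = 0.040). After differentiation 2 were lower, Oit1 (-1.72 ± 0.34, adjusted p = 0.0051) and Dmbt1 (-1.66 ± 0.54, adjusted p = 0.040), and 1 to 3 were called when 1 library was left out, with 1 called without WT stem library 3, AhR-/- stem library 2, WT differentiated library 1 or 3, or AhR-/- differentiated library 1. Over all genes 3.09% were lower in AhR-/- organoids in the stem cell condition and 13.9% after differentiation. The 2 genotype comparisons share groups with the differentiation comparisons.

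Of 22 genes of granule traffic and other goblet cell markers, 14 rose and 4 fell in WT, and 15 rose and 2 fell in AhR-/- organoids, with Ramp1 (4.22 and 4.05) and Scin (3.79 and 2.69) among them. Over all genes 72.2% were called in WT (36.3% up) and 67.7% in AhR-/- organoids (34.1% up). For 3 of the 22, Capn8, Capn9 and Hpd, the filter was passed only with the differentiated libraries, where their levels were higher. Capn8, a calpain of mucus cells, was listed at 0 in the WT stem libraries and averaged 22.1 in the WT differentiated ones. Between genotypes 1 was higher and 1 lower in the stem cell condition, with 1 called in place of 2 without WT stem library 2 or AhR-/- stem library 1 or 2, and 2 were higher and 1 lower after differentiation. The shares of all genes called in these comparisons were 6.57% and 27.6%. Sytl2, which encodes a tether of secretory granules, was lower in AhR-/- organoids in the stem cell condition (-1.88 ± 0.32, adjusted p = 0.0060) and after differentiation (-1.40 ± 0.32, adjusted p = 0.0091). Bace2 was higher in AhR-/- organoids in the stem cell condition (0.53 ± 0.12, adjusted p = 0.027) and after differentiation (0.66 ± 0.12, adjusted p = 0.0037). Cmtm7 was the other gene that was higher after differentiation (0.89 ± 0.14, adjusted p = 0.0016).

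The endoplasmic reticulum list moved against the secreted products. Of its 18 genes 2 rose and 13 fell in WT, and 1 rose and 13 fell in AhR-/- organoids, with median changes of -0.46 and -0.44. Over all genes 72.2% were called in WT (35.9% down) and 67.7% in AhR-/- organoids (33.6% down). Ern2, a stress sensor of mucus-secreting cells, was among those that rose (2.27 ± 0.38 in WT and 3.88 ± 0.38 in AhR-/- organoids), whereas Fkbp11, a folding enzyme of secretory cells, fell by 2.17 and 1.95 and Sdf2l1 by 1.34 and 1.16. Agr2, the folding enzyme among the 10 genes, rose while most of this list fell. Between genotypes Ern2 was the 1 gene of the list called in the stem cell condition, lower in AhR-/- organoids (-1.49 ± 0.38, adjusted p = 0.039), and the list had 0 to 1 calls when 1 library was left out. After differentiation 4 were higher, such as Pdia6 (0.35 ± 0.06, adjusted p = 0.0030), and 1 was lower, Kdelr2 (-0.39 ± 0.07, adjusted p = 0.0037), with 2 to 7 called when 1 library was left out. These 5 of 18 genes are a share near the 27.6% of all genes called in that comparison. The 1 of 18 in the stem cell condition is likewise near the 6.57% of all genes called there.

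Of 9 secretory transcription factors 8 were tested, of which 4 rose and 1 fell in WT and 3 rose and 2 fell in AhR-/- organoids. Over all genes 72.2% and 67.7% were called in these comparisons. Atoh1, which commits cells to the secretory lineage, rose by 2.64 ± 0.61 in WT (adjusted p = 0.0021) and by 2.65 ± 0.61 in AhR-/- organoids (adjusted p = 0.0023), and it passed the filter only with the differentiated libraries. Creb3l1, a membrane-bound factor of secretory cells, fell as Foxa3 did, by 2.46 in WT and 1.40 in AhR-/- organoids, and was higher in AhR-/- than in WT differentiated organoids (1.03 ± 0.12, adjusted p = 0.00048), with a difference between the conditions of 1.07 ± 0.17 (adjusted p = 0.011). Foxa2, a relative of Foxa3 (0.99 ± 0.27, adjusted p = 0.019), was higher and Klf4, a factor of mature goblet cells (-1.15 ± 0.30, adjusted p = 0.017), lower in AhR-/- differentiated organoids. The calls after differentiation were 3 higher and 1 lower, with 1 call left without WT differentiated library 1, and 2 without WT differentiated library 3, AhR-/- differentiated library 1 or AhR-/- differentiated library 2. Over all genes 27.6% were called there. In the stem cell condition limma called none of the 8, and none had an unadjusted p under 0.05, with estimates of -0.03 for Elf3 and -0.18 for Klf4, the most abundant of them.

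Of the 5 lists of the goblet cell program, mucin glycosylation had the most calls between genotypes after differentiation: 10 of 13 tested were lower and 1 was higher in AhR-/- organoids, with a median log2 change of -0.47. Gcnt3 (-1.35 ± 0.38, adjusted p = 0.022) and B3gnt6 (-1.10 ± 0.30, adjusted p = 0.022), which build mucin core structures, were among the lower ones, and St3gal1, a sialyltransferase, was the higher one (0.36 ± 0.09, adjusted p = 0.013), as it was in the stem cell condition (0.66 ± 0.09, adjusted p = 0.0017). The number called was 3 without WT differentiated library 1 or 3, and 6 without WT differentiated library 2 or AhR-/- differentiated library 1. Over all genes 13.9% were lower and 13.8% higher in AhR-/- differentiated organoids.

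**Figure D5:**
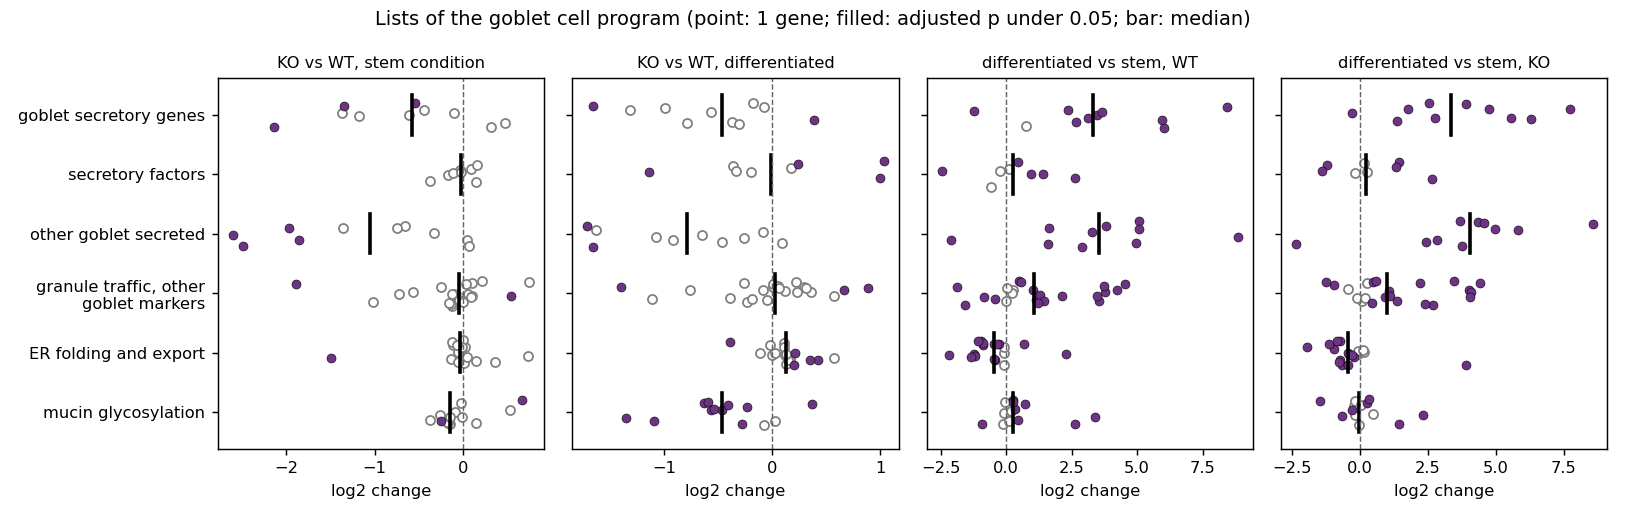
Log2 change (x axis) of every tested gene of the 10 goblet cell secretory genes and of 5 lists of the goblet cell program (y axis) in the 4 pairwise comparisons; each point is a gene, filled where its adjusted p in limma is under 0.05, and the bar is the list median. The median of the endoplasmic reticulum list lies below 0 in both differentiation panels (-0.46 and -0.44), where that of the goblet cell genes is 3.30 and 3.33. The goblet cell medians include 4 genes whose rise was built into the filter.

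Markers of other cells were compared between the same groups. The share of all genes called between genotypes was 27.6% after differentiation and 6.57% in the stem cell condition. All 7 surface colonocyte genes were lower in AhR-/- than in WT differentiated organoids, and their summed normalised count was 14657 to 42050 against 91813 to 145250. Of the 6 stem cell genes 4 were higher, with sums of 16982 to 17800 against 12408 to 12688. Of 5 deep crypt secretory cell genes tested 2 were higher, Cd44 (0.64 ± 0.12, adjusted p = 0.0033) and Cd24a (0.97 ± 0.20, adjusted p = 0.0060), and the list summed to 38345 to 53166 against 24751 to 28051. Of the proliferation genes 3 were higher and 1, Pcna, lower (-0.48 ± 0.10, adjusted p = 0.0050). Of 5 tuft cell genes tested Ptgs1 was higher (2.48 ± 0.54, adjusted p = 0.0078), and of 3 Paneth cell genes tested Mmp7 was higher (1.75 ± 0.33, adjusted p = 0.0040) and Pnliprp2 lower (-2.79 ± 0.42, adjusted p = 0.0015). Of the 6 enteroendocrine genes tested limma called none in these differentiated organoids, and none had an unadjusted p under 0.05, with sums of 196 to 577 in AhR-/- and 596 to 1138 in WT differentiated libraries. In the stem cell condition 3 of the 7 surface colonocyte genes were lower in AhR-/- organoids, with sums of 353 to 421 against 831 to 1369. Ascl2 of the stem cell list (-0.71 ± 0.18, adjusted p = 0.040) and Pcna (-0.40 ± 0.10, adjusted p = 0.033) were lower there too. Limma called none of the enteroendocrine, tuft, Paneth or deep crypt secretory cell genes in that condition, where 1, 2, 2 and 2 of them had an unadjusted p under 0.05. The enteroendocrine one was Chgb, a granule protein, which had an estimate of -2.07 ± 0.60 (unadjusted p = 0.0052, adjusted p = 0.064 in limma). All 6 enteroendocrine genes tested rose on differentiation in both genotypes, but Tph1, Gcg, Pyy and Cck passed the filter only with the differentiated libraries, which fixed their direction. No marker of these lists was at 0 in all libraries, and their part in the goblet cell results was not tested.

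The fibroblast list summed to 20683 in WT stem library 1 and to at most 577 in the other libraries. The stem cell comparison called 3 goblet cell genes with all libraries and 2 without WT stem library 1 alone. Without AhR-/- differentiated library 1 alone it called 4, Clca1 being added. It called the same 4 when both libraries were left out.

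Agr2 lies on chromosome 12, 458 kb from Ahr, and its intervals between genotypes are given above. Of the 35 genes tested within 5 Mb of Ahr, Agr2 among them, 2 were higher and 1 lower in AhR-/- stem organoids, and 4 were higher and 8 lower in AhR-/- differentiated organoids. Over all genes 6.57% and 27.6% were called in these comparisons.

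Across the 12 libraries Spdef and Tff3 followed each other most closely (Pearson's r = 0.995 on the log2 scale), then Agr2 and Tff3 (0.985) and Agr2 and Spdef (0.984). Clca1 was less close to the rest, from 0.59 with Spink4 to 0.82 with Muc2. Foxa3 was negative with all 9 others, from -0.40 with Clca1 to -0.89 with Zg16. Among 13211 other protein-coding genes, those most like Muc2 were Ccl28 (0.991), Cyp4f40 (0.988) and Slc4a7 (0.982), followed by Dnase1l1, Hsd11b2, Tmem131, Zc3h12d and Gcnt4 (0.977 to 0.975). Those most like the mean z-score of the 10 genes were Hnf4g (0.991) and Frat2 (0.991), followed by Ggt6, Glod5, Plcb3, Btnl4, Pllp and Myrfl (0.988 to 0.984). All these libraries fall into stem and differentiated groups, which by themselves give high correlations, so these values are descriptions over 12 libraries.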

How the data were processed

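The deposited table held, per the labels, total RNA sequencing of mouse colonic organoids. The submitters' processing notes name GRCm38, Bowtie2, RSEM 1.2.11 and DESeq2 1.18.1; the annotation and strand use of the counting are not given in the sources used here. The authors' values were normalised counts, treated as a signal: each was a whole multiple of the value of 1 read of its library, so 100% of values gave whole reads (tolerance 0.05), and the depth was 25057534 to 99023592 reads a library. Identifiers were matched to GENCODE vM21 (99.3% matched).

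Values were tested as log2(normalised count + 1) with limma 3.58.1 (trend, all 12 libraries, 4 group means) in R 4.3.3, over 14856 genes with at least 10 in at least 3 libraries, and p-values were adjusted by Benjamini-Hochberg over all of them. Confidence intervals are at 95%. The fits were tested on simulated counts. Alternatives were edgeR 4.0.16 and DESeq2 1.42.0 on the recovered reads (edgeR called 943 genes between genotypes in the stem cell condition, 4092 after differentiation, 10653 and 10120 between conditions in WT and AhR-/- organoids, and 1220 in the interaction), pseudocounts of 0.5 and 5, other filters and scalings, leaving out libraries, and a replicate block. Deviations from the group means of same-numbered AhR-/- stem and AhR-/- differentiated libraries correlated at 0.29, 0.19 and 0.26. This is a hint of pairs from the data only, and the main test used no pairs. Same-numbered libraries of different genotypes correlated at -0.051 to 0.20. The replicate block ties same-numbered libraries of all groups together. It left the number of goblet cell genes called between the AhR-/- conditions at 10. With 3 against 3 libraries an exact permutation test cannot go below 0.1.

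All 10 genes were named; of each list, genes were named from the 3 called ones with the largest change in a comparison, or the 2 most abundant where none was called, and the 8 genes most correlated with Muc2 and with the mean z-score. The genes and lists were chosen with earlier results of these data known. Zg16 overlaps 2 genes on the other strand, both at 0. Promoters came from RefSeq.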

Additional observations from a re-analysis of the deposited data

Results flagged for a closer look

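Foxa3 was singled out because the effect of AhR deficiency on it differed between the culture conditions in a test of that difference. The change after differentiation was 0.93 (log2) above the change in the stem cell condition (SE 0.15, adjusted p = 0.011 in limma over all genes), lower in all 3 AhR-/- stem libraries than in any WT stem library and higher in all 3 AhR-/- differentiated libraries than in any WT differentiated one. The difference was 0.84 to 1.01 when 1 library was left out, and the adjusted p was at most 0.034. This 1 of 10 genes is near the 8.70% of all genes called in this test. Of 6 stem cell genes 3 passed upward and 0 downward. Among them was Ascl2 (1.78 ± 0.26, adjusted p = 0.0098), also lower in AhR-/- stem and higher in AhR-/- differentiated organoids. Of the 8 secretory transcription factors tested 2 passed upward and 0 downward, Creb3l1 and Foxa1 (0.35 ± 0.10, adjusted p = 0.0498).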

How the results depend on the processing

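The 10 genes gave 50 results, which had 1209 values under the alternatives, of which 1114 kept their direction and their side of the threshold, 57 lost a call, 9 gained one and 29 changed sign. The number of goblet cell genes called between genotypes in the stem cell condition was 3, against 1 in edgeR, 0 when only the stem groups were fitted (4 had an unadjusted p under 0.05 in limma) and 0 to 4 when 1 library was left out, with 0 without WT stem library 2 or AhR-/- stem library 1 or 2. After differentiation it was 2, against 1 with a pseudocount of 0.5, 1 with no filter, 1 with a mean of at least 50, 1 in edgeR, 1 when only these groups were fitted and 0 to 2 when 1 library was left out, with 0 without WT differentiated library 1 or 3 or AhR-/- differentiated library 1. Between conditions 8 to 10 were called in WT and 7 to 10 in AhR-/- organoids when 1 library was left out. The interaction had 1 call, 2 in DESeq2, and 1 in every fit without 1 library.

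Leaving out both WT stem library 1 and AhR-/- differentiated library 1, chosen after seeing the data, gave 0 calls after differentiation (2 at an unadjusted p under 0.05 in limma) and 2 in the interaction. There the change between differentiated genotypes was 0.11 for Tff3, 0.20 for Spdef, 0.078 for Fcgbp and 0.27 for Agr2, and the interaction was 0.017 for Muc2, 0.85 for Spink4 and 1.52 for Reg4, all with a changed sign. Signs also changed when 1 library was left out. In the stem cell condition Spink4 ranged from -0.87 to 0.86. Between differentiated genotypes Tff3 ranged from -0.63 to 0.11, Spdef from -0.42 to 0.20, Fcgbp from -0.61 to 0.078 and Agr2 from -0.44 to 0.27. In the interaction Muc2 ranged from -0.82 to 0.12, Spink4 from -1.43 to 0.30 and Reg4 from -1.23 to 0.69. In the interaction Spink4 was 0.14 in edgeR and 0.21 in DESeq2, and Reg4 was 2.10 in edgeR and 2.36 in DESeq2. The cause of these changes was not tested.

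With a replicate block the calls numbered 3, 2, 9, 10 and 1 in the same order of comparisons. With the block within each genotype they numbered 10 in WT, where Clca1 was added (adjusted p = 0.012), 10 in AhR-/- organoids and 1 in the interaction. Same-numbered WT stem and WT differentiated libraries correlated at 0.11, 0.055 and 0.14, each stem library highest with its own number, which is a hint from the data, and their numbers were not taken as pairs. Over all genes the calls between stem genotypes numbered 976, against 1984 in DESeq2, 297 when only these groups were fitted, 1486 with the replicate block, 2664 without both libraries, and 363 without AhR-/- stem library 1, the lowest with 1 library left out. After differentiation they numbered 4103, and 2233 without WT differentiated library 3. In the interaction they numbered 1292, against 2442 in DESeq2, 750 with no filter, 2141 with the replicate block, and 342 without WT differentiated library 3. At this depth the 13 and 2 Reg4 reads and the 10 and 12 Spink4 reads of the stem groups limit what could be seen.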
